A study of Mus musculus with 10 samples.

Results

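The 10 transcription factor genes studied here steer effector CD8+ T cell differentiation: Id2, Prdm1, Tbx21, Eomes, Zeb2, Bhlhe40, Maf, Runx3, Gata3 and Stat4. They were chosen by name, with earlier results of these data known. All 10 were measured and passed edgeR's filter on low counts, among 11781 genes tested of 34932 annotated. RNA came from tumor-infiltrating Pmel CD8+ T cells, whose transgenic receptor recognizes the gp100 antigen of melanoma, taken from 10 mice with B16-F10 melanoma. In the MIT-BATF group (5 mice) the cells had been transduced with the MSCV-IRES-Thy1.1 retrovirus carrying the mouse BATF reading frame, and in the MIT-Empty group (5 mice) with that vector alone. All donor cells came from the spleens of Pmel Thy1.2/Thy1.2 mice and were activated with gp100 peptide and IL-2, transduced, and grown with IL-2, IL-7 and IL-15. Each Ly5.1 recipient received 5000000 Thy1.1+ cells, and 7 days later 2000 live Thy1.1+ cells per tumor were sorted and sequenced by a modified SMART-Seq2 protocol. The study used young adult mice of both sexes. Both groups were thus retrovirally transduced, and BATF, an AP-1 family factor expressed from a viral promoter, was the intended difference.

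Batf itself was not higher in the libraries labelled MIT-BATF. Its level was 21.9 ± 5.54 CPM (counts scaled to the TMM-adjusted library size; SD, n = 5) against 29.2 ± 14.8 CPM (n = 5) in those labelled MIT-Empty, with a log2 fold change of -0.41 (adjusted p = 0.522, edgeR quasi-likelihood test with Benjamini-Hochberg adjustment). Neither the labels nor the methods give the sequence of the vector's reading frame, and it remains unknown if its RNA was counted under Batf. Thy1, carried by the vector and by the T cells, was at 276 ± 77.8 and 263 ± 27.8 CPM (adjusted p = 0.902). The labels could thus not be checked by Batf, and every direction stated here is that of the libraries so labelled.

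The libraries differed in ways that touch the results. The counts were nested: gene by gene, replicate 4 lay within replicate 2 and replicate 5 within replicate 3 in both groups (4 of 45 pairs). In them the smaller library had the higher count in at most 0.570% of genes, against at least 2.78% in every other pair. If these are shared reads, p-values, SDs and intervals over the libraries as deposited are too small, so the test of each of the 10 genes is also given with shared reads counted once, after subtracting the contained library from the one that holds it. Further, mitochondrially encoded genes held 33.2% of the counts of MIT-BATF replicate 1, 11.5% to 15.1% of the other MIT-BATF libraries and 15.5% to 23.1% of the MIT-Empty libraries. RNA of other cells differed as well. Summed melanoma markers (Tyrp1 the most abundant) were at 14.3 to 28.4 CPM in MIT-BATF, against 39.7 to 1700 CPM in MIT-Empty, and summed macrophage and monocyte markers (Lyz2 the most abundant) at 25.0 to 82.6 and 43.6 to 290 CPM. Of these lists 5 of 5 and 4 of 11 tested genes were lower in MIT-BATF by edgeR, or 2 of 5 and 1 of 10 with shared reads counted once. Among all genes tested 2.43% were called lower, or 0.683% with shared reads counted once. Dendritic cell markers (H2-Aa the most abundant, Cd209a at 0 in every library) summed to 33.3 to 45.8 and 34.0 to 122 CPM, with 2 higher and 2 lower of 5 tested. NK cell markers (Klre1) summed to 102 to 231 and 99.7 to 172 CPM, with 0 called of 5. Markers of CD4+ and regulatory T cells (Cd40lg) summed to 0.70 to 6.47 and 0.24 to 3.50 CPM, with 0 of 1 called. B cell markers (Cd79b) summed to 2.55 to 4.74 and 0.66 to 2.08 CPM, with 1 of 1 higher, which was lost with shared reads counted once (edgeR adjusted p = 0.128). Fibroblast and endothelial markers (Pecam1) summed to 6.95 to 14.1 and 16.1 to 107 CPM without overlap, with 1 lower of 2 tested in both fits. The 9 T cell identity genes, led by Cd3d, summed to 3276 to 5510 and 3750 to 5996 CPM with 0 called. In bulk RNA, fewer cells expressing a gene and less of its RNA per cell cannot be told apart.

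CD8+ T cells that meet antigen divide into short-lived killers and longer-lived memory precursors, and a small set of factors tilts this choice. The inflammatory cytokine IL-12 acts through STAT4 to raise T-bet (encoded by Tbx21), which together with ZEB2 drives terminal effector cells. The relative of T-bet, Eomesodermin (Eomes), is tied to memory and to exhausted cells. Id2 blocks the E protein factors, Blimp-1 (Prdm1) and RUNX3 promote cytotoxic and tissue-resident programs, Bhlhe40 sustains effector cytokines and metabolism, and c-MAF (Maf) and GATA3 are known for roles in cytokine control and in dysfunctional T cells in tumors.

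Of the 10 factors, 2 were higher in the libraries labelled MIT-BATF and 0 were lower. Id2 and Maf passed edgeR's test over the libraries as deposited, where 2.16% of all genes tested were called higher and 2.43% lower. Gata3 had an unadjusted p of 0.0105 by edgeR and did not pass after adjustment (adjusted p = 0.122). DESeq2 called the same 2 genes, with 3.09% of its 16351 genes called higher. With shared reads counted once, edgeR called Maf alone, where 0.575% of 11129 genes were called higher and 0.683% lower, and DESeq2 called both, with 1.15% of 14683 genes called higher. The median log2 fold change of the 10 genes was 0.16, against 0.01 for all genes tested. Id2 and Maf were also the only 2 of the 10 whose groups did not overlap, in a table where 3.28% of genes lay wholly higher in MIT-BATF (1.63% with shared reads counted once, where Maf remained and Id2 did not).

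**Figure D1:**
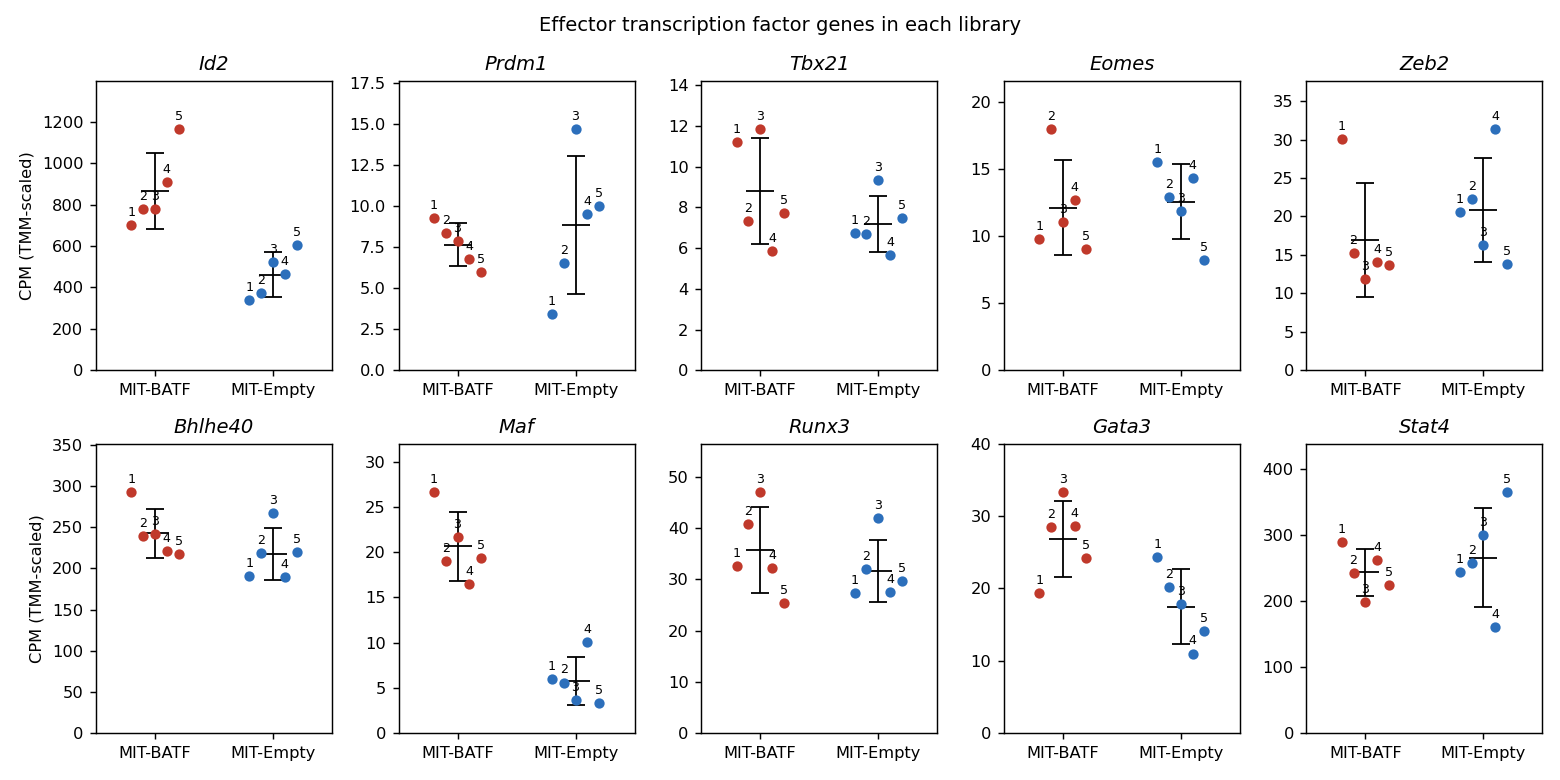
TMM-scaled CPM (vertical axes, each from 0) of the 10 factor genes in every library, red for MIT-BATF and blue for MIT-Empty, each point numbered by replicate; the horizontal bar is the mean and the whiskers 1 SD (n = 5). All MIT-BATF points lie above all MIT-Empty points for Id2 and Maf, the groups overlap for the other 8 genes, and replicate 1 stands apart from the other MIT-BATF libraries for Zeb2 at 30.1 CPM.

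Promoter sequence is shown for Id2, the called gene with a window in the RefSeq table of GRCm38.p6, because its upstream stretch was searched for the letters that BATF and E proteins can read. Windows of 250 bases before each RefSeq start were given for 8 of the 10 genes, though not for Maf or Bhlhe40. The patterns counted, on both strands, were the AP-1 pattern TGANTCA and the E-box CANNTG, each its own reverse complement, and 6.749% and 66.22% of 32851 promoter windows held at least 1 of them in turn. The window of Id2, chr12:25096093-25096342 on the minus strand, held no TGANTCA and 1 E-box. The E-box started at position -196, counting back from -1 at the base before the RefSeq start. The window lies within the annotated gene, which spans 25093799 to 25097140, and 161 of its 250 bases are in exons of transcript Id2-202. The 89 bases of it that lie outside the exons annotated for Id2 are printed 5′ to 3′ with the E-box in capitals.
Id2, chr12:25096254-25096342, minus strand: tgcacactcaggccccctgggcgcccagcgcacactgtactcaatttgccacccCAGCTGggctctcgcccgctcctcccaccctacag
TGANTCA occurred in windows of 2 genes, Zeb2 and Prdm1, neither of which passed the test between the groups. Their first matches are shown with the 11 bases on each side, and the capitals mark the match.
Zeb2, chr2:45110449-45110477, minus strand: ccgcctagcctTGAGTCAagcagtcttac
Prdm1, chr10:44458779-44458807, minus strand: gctggtaggagTGAATCAgaccgtcagta
The match of Zeb2 began at position -189 of 1 of its 4 RefSeq starts, and that of Prdm1 at position -48. A match in these windows is a description of the letters and not a bound site.

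Id2, on chromosome 12 from 25093799 to 25097140 (GRCm38, minus strand), encodes a helix-loop-helix protein without a DNA-binding region that holds E proteins off DNA. In MIT-BATF replicates 1 to 5 it was measured at 703, 779, 779, 908 and 1165 CPM, and in MIT-Empty at 340, 371, 525, 466 and 606 CPM. The lowest MIT-BATF library stood above the highest MIT-Empty library. Means were 867 ± 182 and 462 ± 109 CPM (SD, n = 5 each), and the log2 fold change was 0.91 (standard error 0.19, 95% confidence interval 0.50 to 1.32, edgeR adjusted p = 0.0146). With shared reads counted once the difference was 0.85 (standard error 0.27) and did not pass edgeR (adjusted p = 0.185, unadjusted p = 0.00649). MIT-BATF replicate 3 then held 522 CPM and MIT-Empty replicate 5 held 652 CPM, so that the groups overlapped. DESeq2 gave an adjusted p of 0.000192 over the libraries as deposited and 0.0383 with shared reads counted once. The call also rested on MIT-Empty replicate 2, without which edgeR's adjusted p was 0.055. The gene was highly expressed, above 98.2% of genes tested by mean CPM, and counts of 2779 to 33601 lay behind each value. Dendritic cells and NK cells express Id2 as well. Summed dendritic cell and NK cell markers were at 33.3 to 45.8 and 102 to 231 CPM in MIT-BATF. In MIT-Empty they were at 34.0 to 122 and 99.7 to 172 CPM. The part of these cells in the Id2 difference was not tested.

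On the authors' TPM scale, which divides by transcript length and by the whole library, Id2 was at 284 TPM in MIT-BATF replicate 1 and at 439 to 544 TPM in the other 4. MIT-Empty libraries held 168 to 312 TPM, so the mitochondria-rich replicate 1 fell among them on this scale. Transcript Id2-201 (1270 bases, 3 exons) carried between 93.6% and 96.8% of the gene's TPM in all 10 libraries. Without mitochondrially encoded genes in the library sizes Id2 and Maf were again the 2 genes called.

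The E proteins are the targets that Id proteins hold back. Of 6 further Id and E protein genes 5 were tested, and 0 were higher and 1 lower in MIT-BATF. Their median log2 fold change was -0.21, against 0.01 for all genes tested, of which 2.43% were called lower. The lower one was Tcf4, which encodes the E protein E2-2, at 1.27 ± 0.49 against 3.51 ± 1.35 CPM (log2 fold change -1.48, edgeR adjusted p = 0.0412). With shared reads counted once its adjusted p was 0.235. Tcf4 had only 12 to 82 counts in a library, and the part of other cells' RNA in its difference was not tested. Tcf3 and Tcf12, the E proteins E2A and HEB of T cells, had log2 fold changes of -0.05 and 0.08. Id3, the relative of Id2 associated with memory precursors, was at 10.9 ± 1.42 against 17.2 ± 7.46 CPM (log2 fold change -0.68, edgeR adjusted p = 0.145), and its groups overlapped. Per transcript length Id2 exceeded Id3 in every library, by 5.82 ± 0.27 log2 units of TPM in MIT-BATF (range 5.56 to 6.25) and by 4.32 ± 0.30 in MIT-Empty (range 3.98 to 4.79). This log2 ratio of the 2 genes did not overlap between the groups, nor did it in CPM with shared reads counted once (5.71 to 6.66 and 4.37 to 5.38), and no test was made of it.

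Maf, on chromosome 8 from 115682942 to 115707794 (minus strand), encodes c-MAF, a large bZIP factor known for driving IL-10 and inhibitory receptor genes. It showed the larger difference of the 2 called genes. MIT-BATF replicates 1 to 5 held 26.7, 19.1, 21.7, 16.4 and 19.4 CPM, and MIT-Empty replicates 6.0, 5.58, 3.64, 10.0 and 3.32 CPM. Every MIT-BATF library lay above every MIT-Empty library, the closest being replicate 4 of each group. Means were 20.7 ± 3.85 and 5.71 ± 2.68 CPM, and the log2 fold change was 1.90 (standard error 0.27, 95% confidence interval 1.32 to 2.48, edgeR adjusted p = 0.00123). With shared reads counted once the difference was 2.02 (standard error 0.30, adjusted p = 0.00344) and the groups, at 17.7 to 28.6 and 3.57 to 10.8 CPM, still did not overlap. Counts ranged from 40 in MIT-Empty replicate 5 to 937 in MIT-BATF replicate 3.

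Macrophages also make c-MAF, and summed macrophage markers were at 25.0 to 82.6 CPM in MIT-BATF, and at 43.6 to 290 CPM in MIT-Empty. Their part in the Maf difference was not tested. Within MIT-Empty, replicate 4 had the highest Maf level (10.0 CPM), the highest macrophage sum (290 CPM) and the highest melanoma sum (1700 CPM). Of Maf's transcripts, the single-exon Maf-202 (6360 bases) held 53.3% to 95.6% of the gene's TPM and the spliced Maf-201 (3223 bases) the rest, at 12.4% to 37.6% in MIT-BATF and 4.35% to 46.8% in MIT-Empty. The transcript shares therefore overlapped between the groups. Among small MAF genes, Mafk was at 6.82 ± 2.27 against 3.24 ± 0.53 CPM (log2 fold change 1.07, edgeR adjusted p = 0.0381; 0.236 with shared reads counted once), while Mafg (0.56) and Maff (0.48) did not pass.

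Genes of the coinhibitory module that c-MAF and Blimp-1 drive together were read from a list of 7, of which 6 were tested. Of these 0 were higher and 1 was lower in MIT-BATF. Their median log2 fold change was 0.02, against 0.01 for all genes tested, of which 2.43% were called lower. Il10, the cytokine gene, was the lower one, at 0.21 ± 0.19 against 2.47 ± 2.49 CPM (log2 fold change -3.35, edgeR adjusted p = 0.0208). It was too low to be tested with shared reads counted once. The receptor genes Pdcd1, Havcr2, Lag3 and Tigit had log2 fold changes of 0.12, 0.60, 0.20 and -0.07 and did not pass. Il10 is also a macrophage gene, and the part of macrophage RNA in its difference was not tested.

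Prdm1, on chromosome 10 from 44437177 to 44528501 (minus strand), encodes Blimp-1, a zinc finger repressor of memory genes. MIT-BATF libraries held 9.30, 8.35, 7.90, 6.75 and 5.98 CPM and MIT-Empty libraries 3.43, 6.54, 14.7, 9.53 and 10.0 CPM. The MIT-BATF values lay inside the span of the MIT-Empty values. The log2 fold change was -0.22 (95% confidence interval -0.87 to 0.43, edgeR adjusted p = 0.774), and it was 0.05 without MIT-Empty replicate 3. A retained-intron transcript, Prdm1-203, held 56.3% of the gene's TPM in MIT-BATF replicate 1 and at most 24.2% in any other library.

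For both T-box factors the groups overlapped. Tbx21, on chromosome 11 from 97098071 to 97115331 (minus strand), was at 11.2, 7.34, 11.8, 5.87 and 7.71 CPM in the MIT-BATF libraries and 6.73, 6.70, 9.33, 5.66 and 7.47 CPM in the MIT-Empty libraries. MIT-BATF replicates 1 and 3 exceeded all MIT-Empty libraries and the rest intermingled. The log2 difference was 0.29 (95% confidence interval -0.22 to 0.80, edgeR adjusted p = 0.583), or 0.33 with shared reads counted once (adjusted p = 0.794). Eomes, on chromosome 9 from 118478212 to 118486132 (plus strand), was at 9.83, 18, 11.1, 12.7 and 9.06 CPM against 15.6, 12.9, 11.9, 14.4 and 8.21 CPM. The difference was -0.04 (95% confidence interval -0.53 to 0.44, adjusted p = 0.950), and its sign changed with the setting. Per transcript length, Tbx21 exceeded Eomes in 3 of 5 MIT-BATF and 2 of 5 MIT-Empty libraries, with log2 ratios of TPM of 0.19 ± 0.66 and -0.14 ± 0.51.

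Zeb2, on chromosome 2 from 44983632 to 45117395 (minus strand), encodes the repressor that acts downstream of T-bet in terminal effector cells. MIT-BATF replicates 1 to 5 held 30.1, 15.2, 11.9, 14.1 and 13.6 CPM and MIT-Empty replicates 20.6, 22.3, 16.3, 31.4 and 13.8 CPM. MIT-BATF replicate 1 was high, and the other 4 lay below 4 of the 5 MIT-Empty libraries. Over all libraries the log2 fold change was -0.29 (95% confidence interval -0.87 to 0.28, edgeR adjusted p = 0.631), and without MIT-BATF replicate 1 it was -0.59 (adjusted p = 0.125). The replicate with high Zeb2 was the one with 33.2% mitochondrial counts, and its macrophage marker sum of 25.0 CPM was the lowest of all libraries. In MIT-Empty the highest Zeb2 level was in replicate 4, which also had the highest macrophage and melanoma sums. Macrophages express Zeb2 too, and their part in these values was not tested. The gene's TPM was spread over 29 annotated transcripts, with Zeb2-213 (1762 bases) at 6.78% to 54.7%, the noncoding Zeb2-208 (618 bases) at 7.08% to 44.2% and Zeb2-212, the longest of the 3 at 9124 bases, at 6.24% to 19.6%.

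Terminal effector genes are downstream of several of these factors. Over all genes tested 2.16% were called higher, with a median log2 fold change of 0.01. Of 12 listed genes 11 were tested, and 4 were higher and 0 lower in MIT-BATF, with a median log2 fold change of 0.37. They were Gzmb and Gzma, which encode granzymes, the chemokine Ccl5, and Cxcr3, a T-bet target that encodes a chemokine receptor. Gzmb was at 817 ± 162 against 370 ± 116 CPM (log2 fold change 1.14, edgeR adjusted p = 0.00724, and 0.0435 with shared reads counted once) and Cxcr3 at 40.2 ± 12.1 against 19.0 ± 3.71 CPM (1.08, adjusted p = 0.0108, and 0.0399). Gzma and Ccl5 missed the threshold with shared reads counted once (adjusted p = 0.108 and 0.301). The killer cell markers best known from T-bet and ZEB2 gave no call, with Cx3cr1 at a log2 fold change of 0.37 (adjusted p = 0.307) and Klrg1 barely detected at 0.48 ± 0.52 and 0.76 ± 0.62 CPM. S1pr5 had no count in any library.

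Several of the factors repress memory genes. Of 14 listed genes 13 were tested, with 3 higher and 0 lower. Their median log2 fold change was 0.60, against 0.01 for all genes tested, of which 2.16% were called higher. Satb1, a chromatin organizer of naive and memory T cells, was at 341 ± 104 against 140 ± 30.6 CPM (log2 fold change 1.28, edgeR adjusted p = 0.00309). S1pr1, the receptor gene for lymphocyte egress, had 1.2 (adjusted p = 0.0167), and Lef1, a partner of TCF1, had 1.00 (adjusted p = 0.00378). With shared reads counted once Satb1 and S1pr1 passed and Lef1 did not (adjusted p = 0.0182, 0.0333 and 0.108). Tcf7, which encodes TCF1, had 0.03.

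Counting shared reads once gave no further call among the 10 genes. The log2 fold changes were then -0.22 for Prdm1, 0.00 for Eomes, -0.28 for Zeb2, 0.21 for Runx3, 0.11 for Bhlhe40 and -0.15 for Stat4, with edgeR adjusted p of 0.840 to 0.999.

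**Figure D2:**
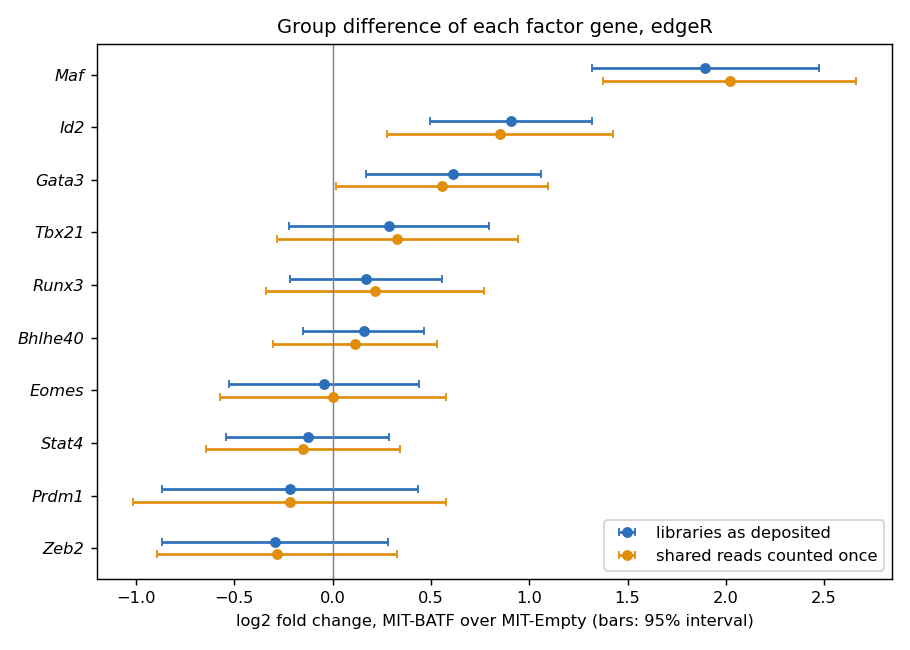
Log2 fold change of MIT-BATF over MIT-Empty from edgeR for the 10 factor genes (points) with 95% confidence intervals (bars), over the libraries as deposited (blue) and with shared reads counted once (orange); the vertical line marks 0. The intervals of Maf, Id2 and Gata3 lie above 0 in both and those of the other 7 genes cross it, and after adjustment over all genes Maf passed in both, Id2 over the deposited libraries and Gata3 in neither.

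Runx3, on chromosome 4 from 135120652 to 135177990 (plus strand), sets the CD8 lineage and supports cytotoxic and resident T cells. It was at 32.7, 40.9, 47.1, 32.3 and 25.4 CPM in the MIT-BATF libraries and 27.3, 32.1, 42.0, 27.5 and 29.7 CPM in the MIT-Empty libraries. Both the highest and the lowest of these values were MIT-BATF libraries. The log2 fold change was 0.17 (95% confidence interval -0.22 to 0.56, edgeR adjusted p = 0.695). Its relative Runx1 was higher in MIT-BATF. Runx1 stood at 14.7 ± 1.49 against 7.24 ± 0.99 CPM, with no overlap (log2 fold change 1.01, edgeR adjusted p = 0.00383), but missed the threshold with shared reads counted once (0.91, adjusted p = 0.0577). Runx2 (0.49) and Cbfb (-0.04), the gene of the subunit all RUNX factors share, did not pass. Whether Runx1 and Runx3 differ in response was not tested. Over all 17 listed relatives and partners of the 10 factors, 14 were tested and 2 were higher (Runx1 and Mafk) and 0 lower. Their median log2 fold change was 0.30, against 0.01 for all genes tested, of which 2.16% were called higher.

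Of 8 genes tied to RUNX3 and tissue residency, all tested, 2 were higher and 0 lower in MIT-BATF. Their median log2 fold change was 0.58, against 0.01 for all genes tested, of which 2.16% were called higher. Cxcr6, a chemokine receptor of resident T cells, was at 515 ± 51.1 against 267 ± 32.9 CPM (log2 fold change 0.95, edgeR adjusted p = 0.0014, and 0.0269 with shared reads counted once). Itga1, which encodes CD49a, was at 8.01 ± 1.38 against 2.19 ± 1.45 CPM (1.90, adjusted p = 0.0109), and missed the threshold with shared reads counted once (adjusted p = 0.0654). Cd8a and Cd8b1, direct RUNX3 targets, had 0.06 and 0.30, and Itgae, which encodes CD103, had 1.30 (adjusted p = 0.193).

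Gata3, on chromosome 2 from 9857078 to 9890034 (minus strand), encodes the zinc finger factor of type 2 and regulatory T cells, also needed for CD8+ T cell maintenance. MIT-BATF libraries held 19.4, 28.5, 33.4, 28.7 and 24.2 CPM and MIT-Empty libraries 24.4, 20.1, 17.8, 11 and 14.1 CPM. In MIT-BATF 3 libraries exceeded all of MIT-Empty, while replicate 1 lay among them and replicate 5 just under the highest. The log2 fold change of 0.61 (95% confidence interval 0.17 to 1.06) had an unadjusted p of 0.0105 and did not pass after adjustment (edgeR adjusted p = 0.122). With shared reads counted once it was 0.56 (adjusted p = 0.447). Limma voom with quality weights, at 0.66, was the single setting of 23 in which it passed (adjusted p = 0.0201), and it called 5.41% of all genes higher. The 2 genes annotated across it, 4930412O13Rik and 9230102O04Rik, held at most 5 counts in a library. Of 7 type 2 genes 3 were tested and 0 were called, with a median log2 fold change of 0.71, against 0.01 for all genes tested. The chemokine receptor genes Ccr8 and Ccr4 had 0.75 and 0.71 (edgeR adjusted p = 0.0868 and 0.689), and Il4, Il5 and Il13 were too low to be tested.

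Bhlhe40, on chromosome 6 from 108660629 to 108666925 (plus strand), encodes a helix-loop-helix repressor that activated T cells induce. Its levels were 293, 239, 242, 222 and 217 CPM in the MIT-BATF libraries and 191, 218, 268, 189 and 220 CPM in the MIT-Empty libraries. These values formed 1 overlapping range and varied least of the 10 genes within MIT-BATF. The log2 fold change was 0.16 (95% confidence interval -0.15 to 0.46, edgeR adjusted p = 0.629). Its paralog Bhlhe41 had 0.08.

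Stat4, on chromosome 1 from 51987148 to 52107189 (plus strand), encodes the factor that carries IL-12 signals to Tbx21 and Ifng. MIT-BATF libraries held 290, 242, 198, 262 and 223 CPM and MIT-Empty libraries 243, 258, 300, 161 and 365 CPM. MIT-Empty had both the highest and the lowest value. The log2 fold change was -0.13 (95% confidence interval -0.54 to 0.29, edgeR adjusted p = 0.795). Among 11 cytokine receptor and kinase genes upstream of the factors, all tested, 1 was higher and 0 lower. Their median log2 fold change was 0.17, against 0.01 for all genes tested, of which 2.16% were called higher. Il12rb2, which encodes the signaling chain of the IL-12 receptor that binds STAT4, held 458, 220, 176, 217 and 218 CPM in the MIT-BATF libraries and 109, 91.2, 101, 66.6 and 98.4 CPM in the MIT-Empty libraries. Its groups did not overlap, with a log2 fold change of 1.46 (edgeR adjusted p = 0.00303, and 0.0198 with shared reads counted once). Il27ra, which encodes the receptor of IL-27, was at 10.5 ± 1.79 against 16 ± 2.37 CPM (log2 fold change -0.61, adjusted p = 0.0673). The kinase genes Jak2 and Tyk2 had 0.26 and -0.02.

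The genes whose levels ran most like those of the 2 called factors were found by the root mean square difference of log2 CPM. A small constant was added before the log, and each gene was centred on its own mean over the 10 libraries. The search covered 6452 genes of mean log2 CPM at least 3. Predicted genes, genes with provisional names and pseudogenes were left out. For Id2 they were Glrx, which encodes glutaredoxin (0.13 log2 units), and Cxcr6 (0.17). For Maf they were Emp1, a membrane protein gene (0.25), and Bace2, a protease gene (0.29). Emp1 stood at 19.4 ± 3.58 against 5.82 ± 2.05 CPM, close to the levels of Maf, and Glrx at 153 ± 21.8 against 84.1 ± 21.5 CPM. These genes were picked for their likeness over all libraries, so no test was made of it.

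Levels between genes were compared per transcript length, in TPM summed over protein-coding transcripts. Id2 was the most abundant of the 10, at 453 ± 103 TPM in MIT-BATF and 238 ± 68.5 TPM in MIT-Empty, and exceeded the next gene in 10 of 10 libraries. Bhlhe40 (46.2 ± 10.1 and 40.3 ± 9.12 TPM) and Stat4 (37.7 ± 5.11 and 40.2 ± 14.7 TPM) followed, with Bhlhe40 above Stat4 in 9 of 10 libraries but their levels within 1 SD of each other. Stat4 was above Runx3 in 10 of 10. Runx3 (6.91 ± 3.07 and 5.71 ± 1.59 TPM) and Gata3 (5.97 ± 2.35 and 3.64 ± 1.12 TPM) came next, with Runx3 higher in 7 of 10. Below them Tbx21, Eomes and Zeb2 lay between 1.85 and 2.93 TPM in their group means, and no neighbours among these 3 kept their order in more than 7 of 10 libraries. Maf, at 2.52 ± 0.77 TPM in MIT-BATF, stood within that cluster. In MIT-Empty its mean of 0.61 ± 0.22 TPM lay below the cluster and below the mean of Prdm1. Prdm1 was at 0.80 ± 0.24 TPM in MIT-BATF and 0.90 ± 0.51 TPM in MIT-Empty. In MIT-Empty replicates 1 and 4 Maf was above Prdm1, at 0.60 against 0.35 and 0.99 against 0.91 TPM.

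**Figure D3:**
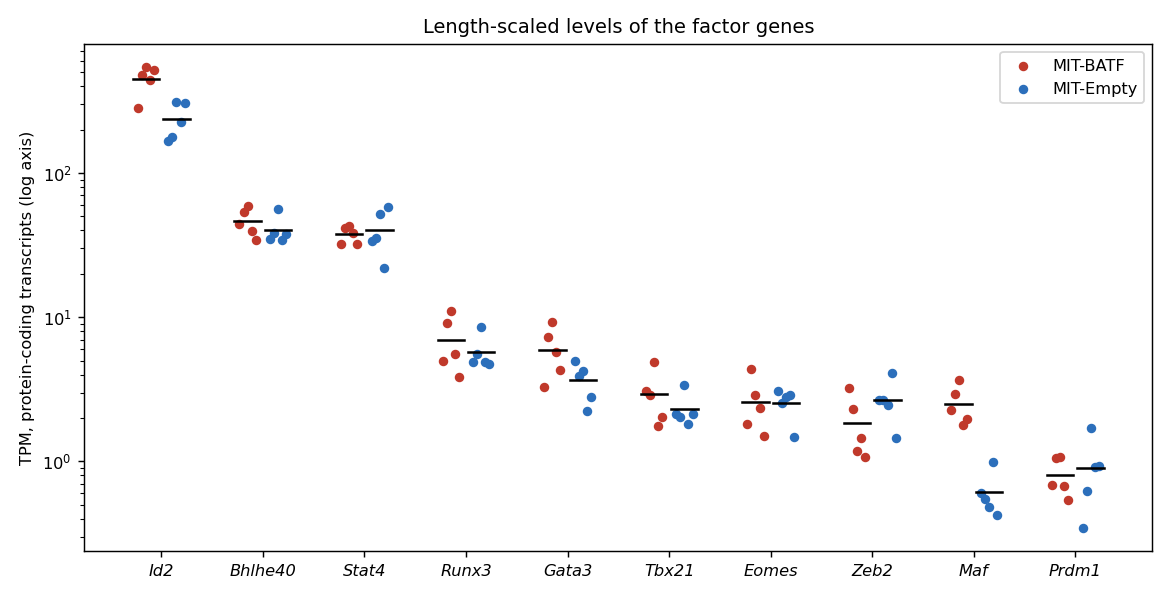
TPM of the protein-coding transcripts of each factor gene (log vertical axis) in the 5 MIT-BATF (red) and 5 MIT-Empty (blue) libraries, with a bar at each group mean, genes ordered by their mean over all 10 libraries. Id2 lies above all others, Bhlhe40 and Stat4 form the next level near 40 TPM, and Maf changes place, at 1.78 to 3.66 TPM in MIT-BATF and 0.42 to 0.99 TPM in MIT-Empty.

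The order depends on which transcripts are counted. With all annotated transcripts Stat4 took second place, at 90.9 ± 23.8 and 93.6 ± 23.4 TPM, because Stat4-204, a retained-intron transcript of 607 bases, held 27.5% to 62.9% of the gene's TPM. The pseudogene Gm3940 on the opposite strand within Stat4 had at most 13 counts in a library. Tbx21 has 1 annotated transcript, and Eomes, Gata3, Bhlhe40 and Runx3 each had most of their TPM in 1 transcript in every library.

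**Figure D4:**
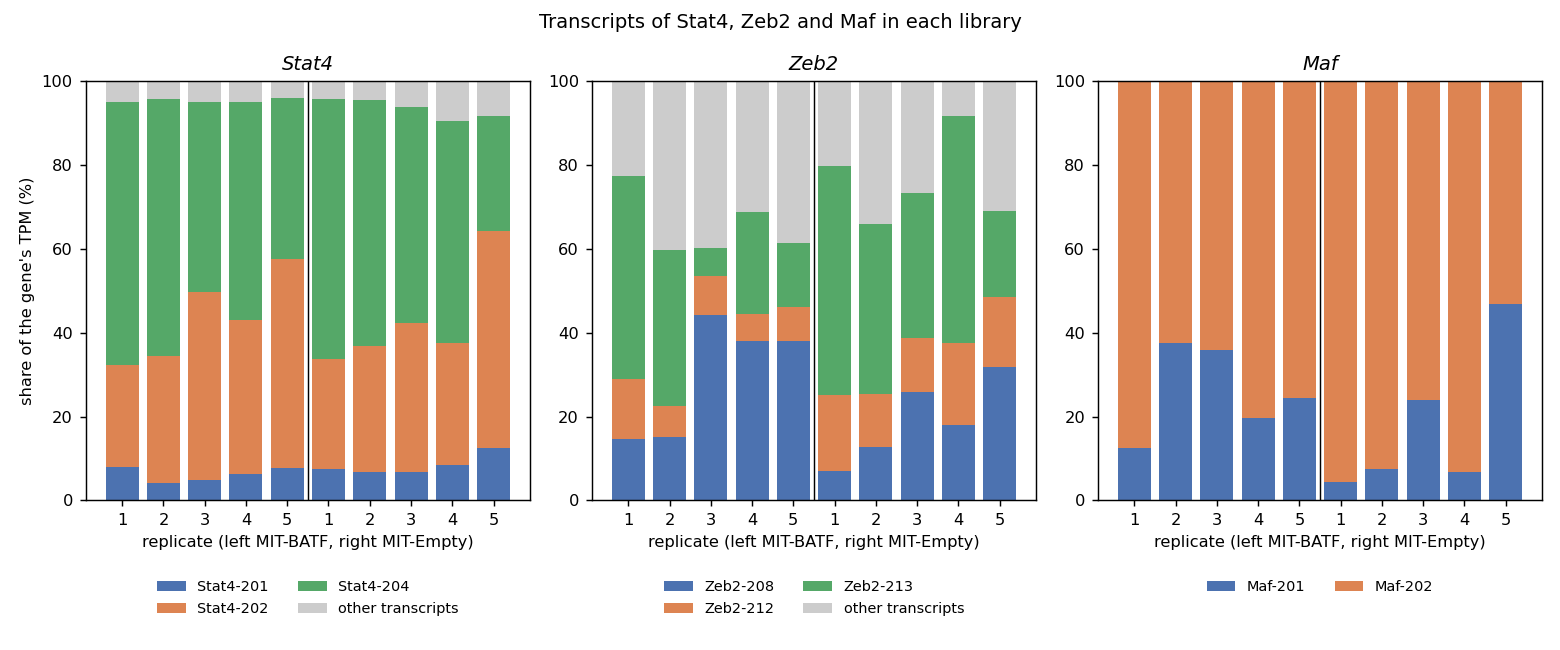
Share of each gene's TPM (vertical axis, percent) held by the main transcripts of Stat4, Zeb2 and Maf in every library, bars numbered by replicate with MIT-BATF left of the line and MIT-Empty right. Stat4-204 reaches 62.9%, Zeb2 is split over many transcripts, and Maf-202 is the larger part of Maf in all 10 libraries, with shares that overlap between the groups for all 3 genes.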

How the data were processed

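Tumor-infiltrating Pmel CD8+ T cells of 10 mice were profiled by SMART-Seq2 with paired reads of 37 bp, and groups and replicate numbers were taken from the sample labels. The authors aligned the reads to mm10 with nf-core/rnaseq and quantified transcripts with Salmon (version not given in the sources used). The deposited files hold Salmon's estimated counts per transcript and the authors' TPM values, which are scaled to transcript length and library total. Their names carry a further number that no label explains, and it was not used.

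Of 112092 transcripts, 305 had no match in GENCODE M21 (0.0617% to 0.0890% of counts) and were left out. Transcript counts were added up per gene and rounded to whole numbers. Totals were 10702740 to 34102086 counts in MIT-BATF (median 20970921) and 6534472 to 21355657 in MIT-Empty (median 12239395), and low genes are limited by this depth. SMART-Seq2 keeps no strand, and overlapping genes on opposite strands cannot be told apart. Genes were tested with edgeR 4.0.16 in R 4.3.3 (quasi-likelihood test, TMM, filterByExpr, group as the only term), and adjusted p-values (Benjamini-Hochberg over every gene tested) under 0.05 were called. The steps were run on simulated counts of separate libraries, with each gene's spread estimated from the libraries as deposited. In these edgeR recovered 48 of 100 2-fold changes and 89 of 100 4-fold changes, with 5 false calls among 142. If nested libraries share reads, the spread used is too small. Nested libraries were not simulated. Libraries were called nested where the contained one had the higher count in fewer than 1% of genes, among those with at least 5 counts. Taking the contained library off the containing one set at most 0.215% of counts to 0 instead of a negative value. DESeq2 1.42.0, limma 3.58.1 (voom with quality weights, and log2 of TPM plus 1), RLE size factors, other count filters, a replicate block and fits without single libraries, without the contained or containing ones, or without mitochondrial genes were alternatives. DESeq2 and a fit without MIT-BATF replicate 1 on shared reads counted once were added after seeing the data. The fit was run on gene sums, and figures were drawn in Python 3.11.15 with matplotlib 3.10.9. The 5 libraries of a group were treated as separate mice, as the methods of the study describe them. P-values set the difference between the groups against the spread between the libraries. Those over the libraries as deposited are too small if nested libraries share reads.

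The 10 genes and all gene lists were chosen with earlier results of these data known. Beyond the 10 genes, Batf and Thy1, the text names from each pathway list the genes past the threshold and the 2 of smallest p, from each marker list the most abundant gene, and for each called factor the 2 genes of most similar profile. Other genes named from the lists were chosen after their values were seen.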

Additional observations from a re-analysis of the deposited data

Results flagged for a closer look

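Among the 20 sets of 5 values (10 genes in each of 2 groups), 1 held a value far from the others by Dixon's test at the 95% level, which chance alone gives in about 1 of 20 sets. Zeb2 was at 30.1 CPM in MIT-BATF replicate 1, a gap of 0.818 of the group's whole range against a critical value of 0.71. In this library mitochondrially encoded genes held 33.2% of the counts and summed macrophage markers were the lowest of all libraries, 25.0 CPM. What links these values was not tested.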

How the results depend on the processing

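Of the 10 genes, 2 were called higher over the libraries as deposited. With shared reads counted once 1 was called, and 1 also when MIT-BATF replicate 1 was then left out. There was 1 without the contained libraries, 1 with limma on log2(TPM + 1) and 0 without the containing libraries. Leaving out single libraries gave 1 to 2. Across 23 settings Maf passed in 22, at log2 fold changes of 1.11 to 2.19, and missed without the containing libraries (1.72, edgeR adjusted p = 0.130), and Id2 passed in 17, at 0.78 to 1.05. Id2 missed with shared reads counted once (edgeR adjusted p = 0.185, and 0.190 without MIT-BATF replicate 1), without the contained (0.0751) or the containing libraries (0.257), on TPM (0.0504 by limma) and without MIT-Empty replicate 2 (0.055). No gene of the 10 was called lower in any setting. The sign of uncalled genes changed: Eomes was at 0.0031 with shared reads counted once, 0.014 with DESeq2 on these, 0.094 when MIT-BATF replicate 1 was also left out, 0.0099 with no filter, 0.18 with voom and -0.23 to 0.048 without single libraries; Prdm1 was at 0.053 without the contained libraries and -0.41 to 0.051 without single libraries; Stat4 was at 0.015 without the containing libraries and -0.26 to 0.035 without single libraries. The cause was not tested. Over all genes 540 were called, against 140 with shared reads counted once (138 without MIT-BATF replicate 1, 388 by DESeq2), 96 without the contained and 15 without the containing libraries, which have fewer samples, 1238 by DESeq2, 903 with no filter, 1336 with voom, 219 on TPM and 287 to 772 without single libraries. The fit with replicate number as a block called 474 genes and the same 2 factors; same-numbered libraries of the groups correlated at 0.156, -0.035, 0.279, -0.059 and 0.062 in their deviations from the group means, so the numbers were not taken as pairs. Depth and 5 libraries a group limit the lowest genes, such as Prdm1 with 28 to 359 counts.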
